A study of Dunaliella salina with 12 samples.

Results

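Sorbitol was compared directly with H2O2 in Dunaliella salina strain 435, a unicellular green alga of brines. The comparison rests on 6 of the 12 libraries of the series, the 3 titled Sorbitol and the 3 titled H2O2, and no control library entered its test. Sorbitol cells spent 2 h in fresh medium with 1.5 M sorbitol, labelled as hypertonic stress, and H2O2 cells spent 2 h in fresh medium with 0.4 mM H2O2, labelled as oxidative stress. The fresh medium held 1.5 M NaCl in both, so neither group was free of salt. The other groups of the series served as levels and as a separate comparison: NaCl cells, which received a further 1.5 M NaCl for 2 h, and control cells, which were moved to the fresh medium alone for 2 h, with 3 libraries each. All cells are labelled as 5 days old, were grown at 25 °C under a 16 h day and an 8 h night, and were pelleted before transfer. Nothing in the labels ties the 3 libraries of a group to separate cultures. The p-values therefore cover only the spread among the libraries themselves, possibly technical.

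Dunaliella has no rigid cell wall, so a hypertonic medium draws water out of the cell until the cell makes enough glycerol, its compatible solute, to balance it. Glycerol is built from photosynthetic products and from stored starch. H2O2 is a reactive oxygen species that crosses membranes, oxidises protein thiols and is removed by catalase, ascorbate peroxidase and related enzymes. The series title names both stresses as effects of salinity, and the series holds an agent for each. The direct comparison asks how transcript levels differ between the osmotic and the oxidative agent, each at its single dose.

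The sources used here give no gene name, sequence or coordinate for any transcript. The tables list 82333 assembled genes under IDs of a component part and a gene part, and 0 of these IDs matched the 16683 genes of the Dunsal1 v. 2 reference table. Genes of glycerol synthesis, starch breakdown or peroxide removal therefore could not be picked out, and genes are given by ID or by rank. Sorbitol libraries listed between 37005 and 39566 genes above 0, and H2O2 libraries between 37740 and 38002. The means were 38223 ± 1285 with sorbitol and 37827 ± 151 with H2O2 (SD, n = 3 each, exact permutation p = 0.70, two-sided, where 0.10 is the smallest that 3 against 3 can give). Relative depth, taken from the size of a single-read step at low FPKM, ran from 1.035 to 1.141 with sorbitol and from 0.986 to 1.028 with H2O2, with H2O2 replicate 1 set to 1.0. Only 13.6% of genes lay at the main step in Sorbitol replicate 3, the library at 1.141. The highest share, in H2O2 replicate 3, was 25.6%, so these depths are rough estimates. Across the tested genes, Pearson correlations of log2(FPKM + 1) were 0.963 to 0.965 among sorbitol libraries, 0.949 to 0.958 among H2O2 libraries and 0.933 to 0.944 between the groups. With control libraries they were 0.953 to 0.966 for H2O2 and 0.939 to 0.950 for sorbitol. H2O2 libraries were thus about as close to control as to each other. With NaCl libraries they were 0.892 to 0.908 for H2O2 and 0.934 to 0.953 for sorbitol.

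Sorbitol and H2O2 left the cells with different levels of 2001 transcripts, and most of these were lower with sorbitol. FPKM is a transcript's fragments scaled by its length and by the mapped total. A test was run on the 21590 genes that reached 1 FPKM in 3 or more of the 6 libraries, and a gene was called at an adjusted p below 0.05 in limma with the Benjamini-Hochberg method. Of these, 683 were higher with sorbitol and 1318 lower, which is 9.27% of the tested genes in all, 3.16% higher and 6.1% lower. An unadjusted p below 0.05 was reached by 5284 genes (24.5%). The median log2 fold change, sorbitol minus H2O2 on the log2(FPKM + 1) scale, was 0.78 among the higher genes and -0.85 among the lower genes, against -0.01 over all tested genes. Calls of at least 1 log2 numbered 251 higher and 467 lower, which together are 3.33% of the tested genes. At 2 log2 the balance turned, with 51 higher and 35 lower, and at 3 log2 there were 9 higher and 5 lower. The libraries of the 2 groups did not overlap in any of the 2001 called genes, nor in 30.5% of all tested genes. Each library is a bulk pool of cells, so less of a transcript per cell and fewer cells that carry it cannot be told apart. The count depended on single libraries: it was 909, 936 and 685 when Sorbitol replicates 1, 2 and 3 were left out in turn, and 897 when H2O2 replicate 1 was left out.

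**Figure D1:**
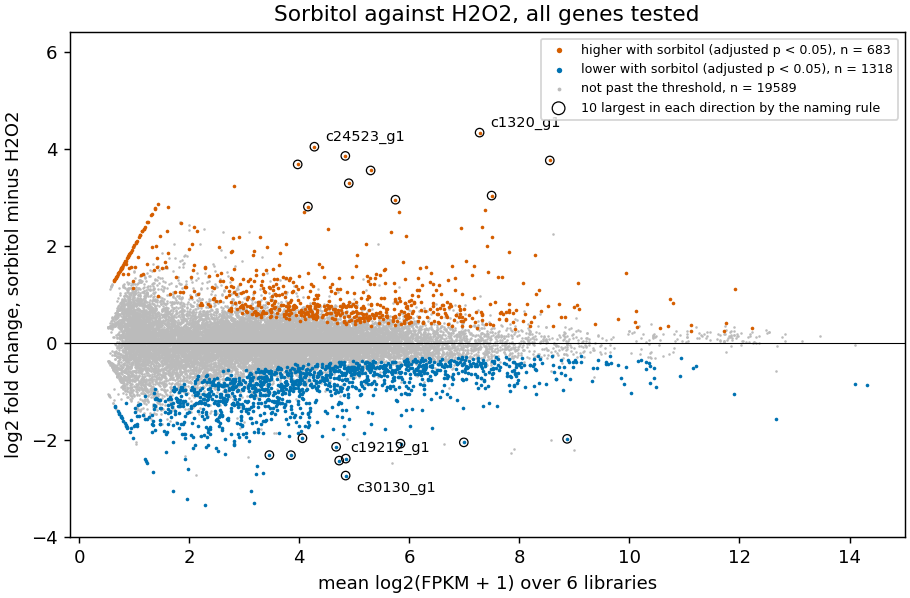
Log2 fold change of sorbitol minus H2O2 (y axis) against the mean log2(FPKM + 1) of the 6 libraries (x axis) for the 21590 tested genes, with the 683 higher and 1318 lower calls in color and the 10 largest of each direction by the naming rule circled. The circled higher genes lie between 2.81 and 4.33 and the circled lower genes between -2.74 and -1.97; the diagonal rows of points at low levels are genes listed at 0 in all 3 libraries of one group.

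The largest differences in the higher direction were 7.0-fold to 20.1-fold, among transcripts that were low to moderate with H2O2 and moderate to abundant with sorbitol. To keep the lowest values out, genes were ranked among the called ones whose mean level was at or above the median of the tested genes (9.58 FPKM on the log scale) and whose groups did not overlap, 488 higher and 849 lower. The gene c1320_g1 was at 679, 529 and 936 FPKM in the sorbitol libraries, against 32.9, 52.2 and 22.0 FPKM in the H2O2 libraries. Its lowest sorbitol library lay far above its highest H2O2 library, and its log2 fold change was 4.33 ± 0.31 (SE, adjusted p = 0.00078 in limma). The gene c24523_g1 was at 86.5, 63.4 and 85.1 FPKM with sorbitol, against 3.71, 6.69 and 2.01 FPKM with H2O2, which is a difference of 4.04 ± 0.32 log2 (SE, adjusted p = 0.00089 in limma). Its component of the assembly holds several genes, so reads may be shared with a close copy. The gene of rank 3 was at 98.9, 96.0 and 131 FPKM with sorbitol, against 6.02, 6.08 and 7.60 FPKM with H2O2. It had the smallest adjusted p of any tested gene, 0.00016 in limma, with a log2 fold change of 3.85 ± 0.15 (SE).

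The gene of rank 4 was the most abundant of these 10, at 1389, 1243 and 1523 FPKM with sorbitol, against 76.7, 156 and 86.5 FPKM with H2O2 (3.76 ± 0.24, adjusted p = 0.00056 in limma). Rank 8 was held by a gene at 470, 489 and 598 FPKM with sorbitol, against 74.2, 63.7 and 50.7 FPKM with H2O2 (3.03 ± 0.15, adjusted p = 0.00033 in limma). In both genes the H2O2 libraries were also below all 3 control libraries, which held 186, 167 and 164 FPKM of rank 4 and 109, 123 and 128 FPKM of rank 8. Their distance between sorbitol and H2O2 thus has a part on each side of the control level, 3.00 and -0.76 log2 for rank 4 and 2.10 and -0.94 log2 for rank 8 (sorbitol minus control, then H2O2 minus control). Rank 7 had the least even H2O2 libraries of the 10, at 10.9, 16.3 and 3.25 FPKM, against 102, 69.1 and 112 FPKM with sorbitol, and the largest adjusted p (0.0067 in limma). Over the 10 genes, sorbitol means ran from 46.6 to 1385 FPKM and H2O2 means from 3.47 to 106 FPKM. Of the 10, 5 belong to components of several genes.

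Transcripts lower with sorbitol moved less far at moderate levels, by 3.92-fold to 6.68-fold for the 10 of largest change. The gene c30130_g1 was at 10.3, 12.2 and 8.22 FPKM in the sorbitol libraries, against 88.6, 64.1 and 69.2 FPKM in the H2O2 libraries, which is a difference of -2.74 ± 0.17 log2 (SE, adjusted p = 0.00056 in limma). The gene c19212_g1 had almost the same levels, 10.6, 11.4 and 9.30 FPKM with sorbitol, against 75.3, 52.7 and 55.8 FPKM with H2O2 (-2.43 ± 0.16, adjusted p = 0.00056 in limma). In both genes H2O2 replicate 1 was the highest of the 6 libraries, and the groups were far apart. The first belongs to a component of several genes and the second does not. The gene of rank 8 was the most even across H2O2 libraries, at 256, 271 and 249 FPKM, against 69.2, 55.9 and 60.0 FPKM with sorbitol (-2.05 ± 0.10, adjusted p = 0.00033 in limma). Rank 9 was the most abundant of these 10, at 432, 162 and 183 FPKM with sorbitol, against 669, 1137 and 1051 FPKM with H2O2 (-1.98 ± 0.37, adjusted p = 0.018 in limma). In control it ranged from 3559 and 1665 down to 555 FPKM, so its place relative to control is poorly fixed. Over the 10 genes, sorbitol means ran from 3.95 to 259 FPKM and H2O2 means from 23.6 to 952 FPKM.

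**Figure D2:**
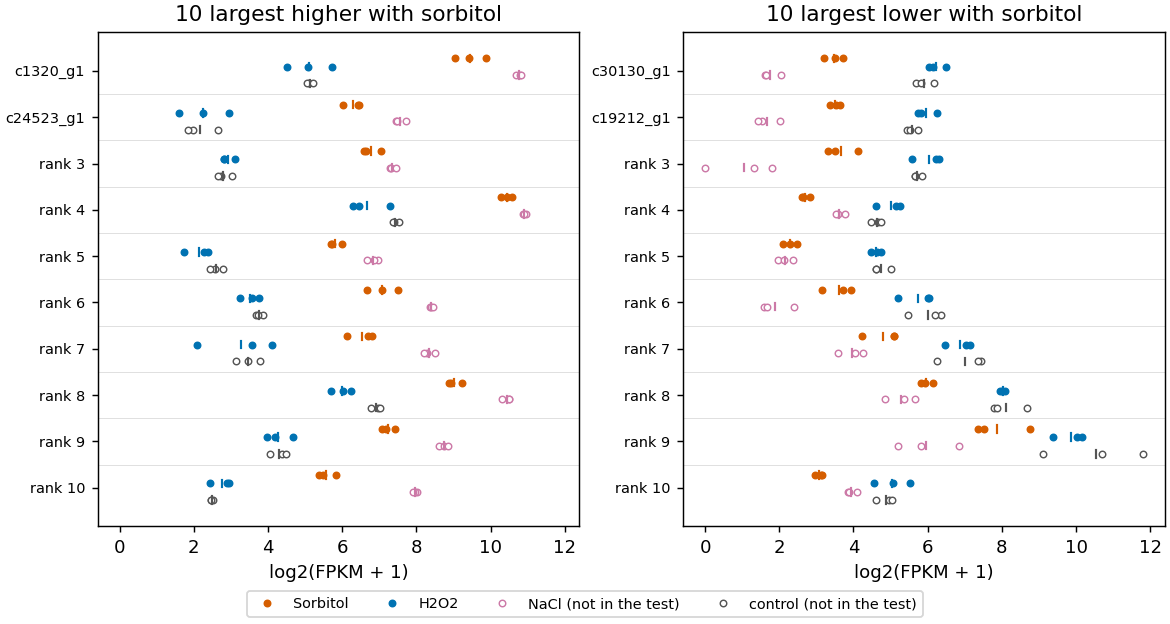
Values of log2(FPKM + 1) per library (x axis) for the 10 genes of largest change in each direction (rows), with sorbitol and H2O2 as filled points, NaCl and control as open points and group means as vertical ticks. Sorbitol and H2O2 points are apart in all 20 rows, as the naming rule requires. H2O2 mean minus control mean runs from -0.94 to 0.28 log2 in the higher genes. In the lower genes it runs from -0.68 to 0.39 log2. The NaCl mean lies beyond the sorbitol mean in 10 of 10 higher and 8 of 10 lower genes.

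With no limit on the level, the ranking of lower genes changed. Of the 10 called genes furthest below H2O2 with sorbitol, 9 were below the median level, whereas 1 of the 10 furthest above was. Lower here means below H2O2, not below control. The first lower gene was at 2.57, 0 and 0 FPKM with sorbitol, against 5.76, 24.6 and 20.5 FPKM with H2O2. Its log2 fold change was -3.34 ± 0.64 (SE, adjusted p = 0.020 in limma). The second was in a gene at 2.58, 1.36 and 1.81 FPKM with sorbitol, against 27.3, 46.3 and 16.1 FPKM with H2O2 (-3.30 ± 0.35, adjusted p = 0.0023 in limma). That second gene was lower in both treatments than in the control libraries, which held 110, 86.1 and 131 FPKM. The third was at 0.28, 0.28 and 0.25 FPKM with sorbitol, against 15.9, 5.51 and 14.4 FPKM with H2O2 (-3.23 ± 0.36, adjusted p = 0.0028 in limma). Its control libraries held 2.41, 1.38 and 2.75 FPKM, so each H2O2 library was above every control library and each sorbitol library was below. Values this low rest on few reads, and the scale understates their change.

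The most abundant transcripts split into 3 that were lower with sorbitol and 7 that did not pass the test. Ranked by the mean over the 6 libraries, the gene of rank 1 was at 17170, 13180 and 15140 FPKM with sorbitol, against 31400, 28160 and 23280 FPKM with H2O2 (-0.86 ± 0.13, adjusted p = 0.0085 in limma). Rank 2 stood at 14130, 10810 and 14790 FPKM with sorbitol, against 27230, 25710 and 19130 FPKM with H2O2 (-0.86 ± 0.16, adjusted p = 0.019 in limma). Rank 6 stood at 4318, 2987 and 4057 FPKM with sorbitol, against 13100, 13140 and 8061 FPKM with H2O2 (-1.58 ± 0.21, adjusted p = 0.0055 in limma). In each of these 3 genes the groups did not overlap, and H2O2 replicate 3 was the lowest H2O2 library. Among the first 9 ranks the other 6 genes had log2 fold changes of -0.05 to 0.19 with standard errors of 0.06 to 0.09 (smallest adjusted p = 0.23 in limma). The gene of rank 3, for example, was at 17180, 17900 and 16750 FPKM with sorbitol, against 17930, 17820 and 17950 FPKM with H2O2. Rank 10, the remaining gene that did not pass, stood at 5614, 5956 and 4338 FPKM with sorbitol, against 6266, 8421 and 9448 FPKM with H2O2 (-0.59 ± 0.17, adjusted p = 0.075 in limma), and its groups did not overlap. The 10 highest genes of each library held 9.57% ± 0.21 of the summed FPKM with sorbitol and 11.9% ± 0.78 with H2O2 (SD, n = 3 each, exact permutation p = 0.10, two-sided, the smallest possible). Of the 100 most abundant genes, 7 were higher with sorbitol, 8 were lower and 85 did not pass, a share of calls near the 16.4% in the highest of 4 equal groups of tested genes by level and above the 9.27% of all tested genes.

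Calls were more frequent at higher levels, and genes lower with sorbitol outnumbered higher ones at every level. The tested genes were divided into 4 groups of equal size by their mean level, with median levels of 1.70, 6.34, 14.85 and 47.1 FPKM. From the lowest to the highest group, 93, 102, 162 and 326 genes were higher with sorbitol and 153, 316, 290 and 559 were lower. These calls were 4.56%, 7.75%, 8.38% and 16.4% of their groups. The median size of a called change went the other way, 1.51, 1.07, 0.80 and 0.60 log2. Among calls of at least 1 log2, the highest group held 70 higher and 61 lower genes, and the group below the middle held 48 higher and 182 lower.

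**Figure D3:**
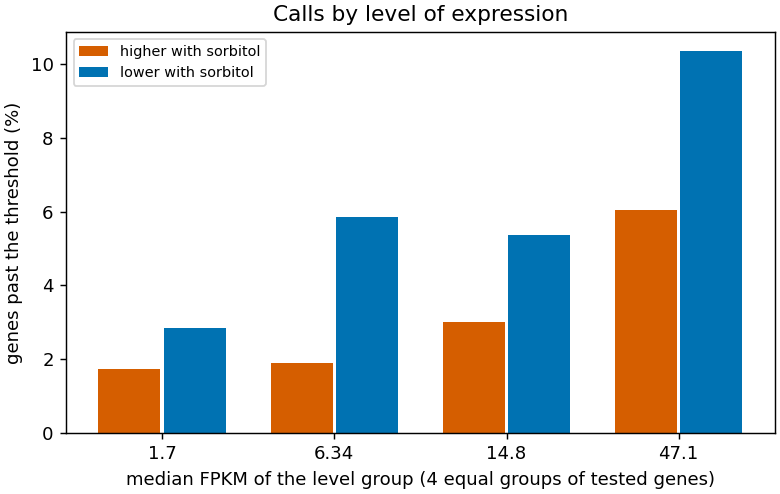
Percent of tested genes past the threshold (y axis, from 0) in 4 equal groups by mean level (x axis, median FPKM of each group), for genes higher and lower with sorbitol. The share lower with sorbitol is above the share higher in every group, from 2.83% against 1.72% in the lowest to 10.4% against 6.04% in the highest.

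The control libraries, which were not part of the test, give a level to set beside both treatments. For 626 of the 683 genes higher with sorbitol (91.7%) and 1169 of the 1318 lower genes (88.7%), the control mean was nearer to the H2O2 mean than to the sorbitol mean. The same held for 63.2% of all tested genes. Genes higher with sorbitol had a median of 28.7 FPKM with sorbitol and 15.7 FPKM with H2O2, against 16.8 FPKM in control. Genes lower with sorbitol had a median of 11.8 FPKM with sorbitol and 23.5 FPKM with H2O2, against 21.5 FPKM in control. In log2 units the median distance from control was 0.77 with sorbitol and -0.04 with H2O2 for the higher genes, and -0.71 with sorbitol and 0.12 with H2O2 for the lower genes. Over all tested genes the median distance was 0.11 with sorbitol and 0.10 with H2O2. Both distances use the same control libraries, so a deviation of those libraries enters both.

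**Figure D4:**
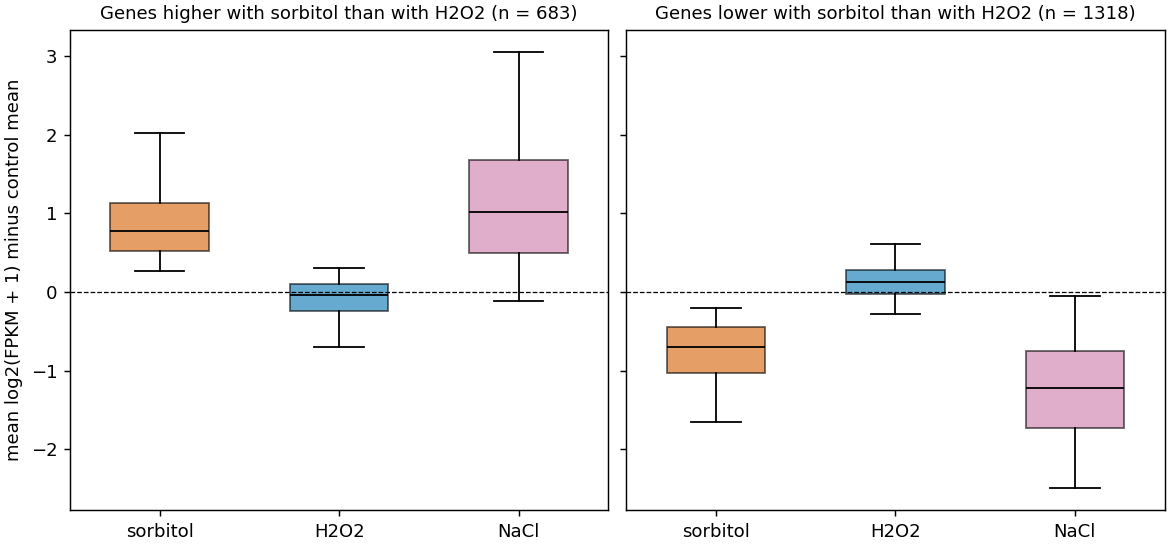
Mean log2(FPKM + 1) minus the control mean (y axis) in sorbitol, H2O2 and NaCl libraries (x axis) for the 683 genes higher and the 1318 genes lower with sorbitol than with H2O2; boxes give the quartiles and median, whiskers the 5th and 95th percentiles. The sorbitol medians are 0.77 and -0.71, the H2O2 medians -0.04 and 0.12, and the NaCl medians 1.01 and -1.22.

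A smaller set of called genes lay nearer to control with sorbitol than with H2O2. There were 57 of these among the higher genes and 149 among the lower genes. The 57 had a median of 14.2 FPKM with sorbitol and 7.49 FPKM with H2O2, against 11.4 FPKM in control, and median distances from control of 0.24 log2 with sorbitol and -0.60 log2 with H2O2. The 149 had a median of 10.8 FPKM with sorbitol and 19.2 FPKM with H2O2, against 14.2 FPKM in control, and median distances of -0.23 log2 with sorbitol and 0.48 log2 with H2O2. The split was made by the control values, so these distances describe it and are no test. In NaCl against control, described below, 80 of the 149 were called lower with NaCl and 9 higher. Of the 57, 16 were called higher and 2 lower. Over all tested genes the shares were 23.3% higher and 20.8% lower. The control libraries that made the split also enter these calls, so the counts are no test either.

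Genes that separated sorbitol from H2O2 were in large part those that added NaCl moved, in the same direction. NaCl against control was fitted on the same 21590 genes in the 6 libraries that the first comparison did not use, so the 2 comparisons share no library. NaCl called 44.1% of the genes, 23.3% higher and 20.8% lower. Of the 683 genes higher with sorbitol, 514 (75.3%) were higher with NaCl than in control, 2 were lower and 167 were not called. Of the 1318 genes lower with sorbitol, 1141 (86.6%) were lower with NaCl, 22 were higher and 155 were not called. The 1655 genes called in the same direction are 82.7% of the sorbitol and H2O2 calls and 17.4% of the 9518 NaCl calls. The median NaCl log2 fold change was 1.01 in the genes higher with sorbitol and -1.22 in the lower genes, against 0.04 over all tested genes. Across all 21590 genes the log2 fold changes of the 2 comparisons had a Pearson correlation of 0.57, and 0.42 among the genes not called between sorbitol and H2O2. Genes are not independent replicates, so these correlations are a description. The overlap was 797, 827 and 596 when Sorbitol replicates 1, 2 and 3 were left out in turn, and 770 when H2O2 replicate 1 was left out, where the first comparison itself had fewer calls. The 24 genes called in opposite directions numbered 7, 8 and 6 without Sorbitol replicates 1, 2 and 3 in turn, and 9, 20 and 27 without H2O2 replicates 1, 2 and 3. They numbered 14, 16 and 15 without NaCl replicates 1, 2 and 3, and 13, 14 and 17 without Control replicates 1, 2 and 3.

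**Figure D5:**
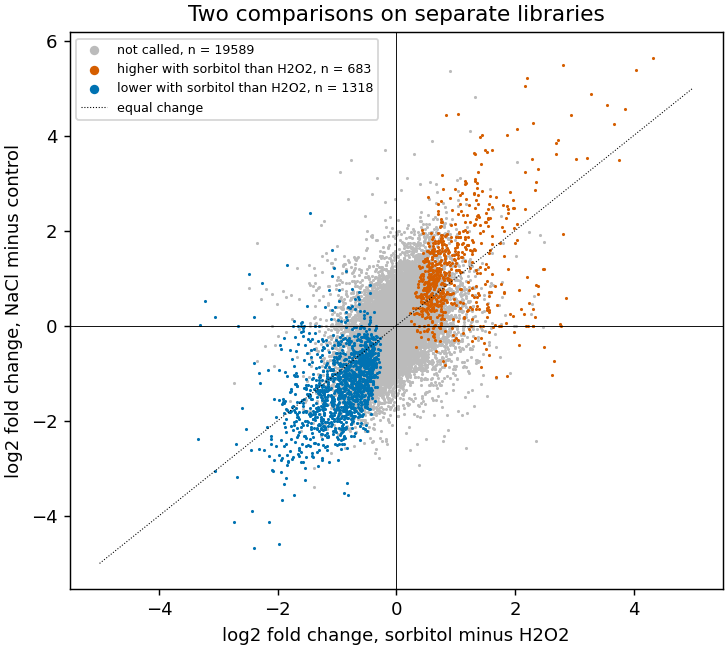
Log2 fold change of NaCl minus control (y axis) against that of sorbitol minus H2O2 (x axis) for the 21590 tested genes, with the 683 higher and 1318 lower calls of the sorbitol and H2O2 comparison in color and a dotted line of equal change. Most colored points lie in the quadrants of equal sign, 514 and 1141 of them called in both comparisons; 103 colored points have opposite signs, and 24 of those are called in both.

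Within the 1655 shared genes, NaCl against control was the larger change in 1389 (83.9%), with a median size of 1.32 log2 against 0.80 log2 between sorbitol and H2O2. NaCl changes were also wider over all tested genes, with quartiles of -0.44 and 0.46 log2, against -0.26 and 0.23 log2 between sorbitol and H2O2. The shared genes were besides selected by passing both tests, and the same share was not computed over all tested genes. The 83.9% is therefore not shown to be particular to them. The 10 ranked genes higher with sorbitol were all higher with NaCl than in control. For c1320_g1 the NaCl libraries held 1641, 1767 and 1800 FPKM, against 33.4, 32.1 and 35.8 FPKM in control, and c24523_g1 held 174, 176 and 210 FPKM, against 5.23, 2.95 and 2.61 FPKM. In all 10 the NaCl mean was above the sorbitol mean. Both agents were added at 1.5 M, which is not shown to be an equal osmotic dose. The 10 ranked genes lower with sorbitol were all lower with NaCl than in control. For c30130_g1 the NaCl libraries held 3.12, 2.04 and 2.10 FPKM, against 50.9, 55.2 and 70.5 FPKM in control, and c19212_g1 held 3.07, 1.91 and 1.71 FPKM, against 42.8, 45.1 and 52.2 FPKM. The NaCl mean was below the sorbitol mean in 8 of the 10. The exceptions were the gene of rank 4, at 5.47 ± 0.50 FPKM with sorbitol and 11.3 ± 1.11 FPKM with NaCl, and the gene of rank 10, at 7.44 ± 0.60 FPKM with sorbitol and 14.4 ± 1.40 FPKM with NaCl (SD, n = 3 each), in which sorbitol and NaCl were not tested against each other.

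The 322 genes that NaCl did not call were 16.1% of the calls between sorbitol and H2O2, and their median levels were lower than those of the genes it called. The 167 higher genes among them had a median of 10.3 FPKM with sorbitol and 4.88 FPKM with H2O2, against 37.8 FPKM and 21.1 FPKM for the 514 higher genes that NaCl called. Their median NaCl log2 fold change was 0.19, with an interquartile range of -0.04 to 0.44. The 155 lower genes had a median of 4.88 FPKM with sorbitol and 11.5 FPKM with H2O2, and a median NaCl log2 fold change of -0.28 with an interquartile range of -0.49 to -0.02. A gene that NaCl did not call is not shown to be unmoved by it. With no limit on level, NaCl called 5 of the 10 genes furthest below H2O2 with sorbitol and 10 of the 10 furthest above. It called 44.1% of all tested genes, and the 2 counts were not tested against each other. The second of these lower genes was at 104, 172 and 71.5 FPKM with NaCl, near its control level. The third was at 2.27, 0.26 and 21.0 FPKM with NaCl, which spans its levels with sorbitol and H2O2.

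Few calls were genes missing from one treatment. In 31 tested genes all 3 sorbitol libraries were listed at 0, and 20 of these were called. Their median was 1.65, 1.67 and 1.65 FPKM in the H2O2 libraries and 0 in each NaCl and control library. In 65 tested genes all 3 H2O2 libraries were listed at 0, and 52 of these were called. Their median was 2.29, 2.10 and 2.05 FPKM in the sorbitol libraries and again 0 in each NaCl and control library. A gene at 0 in one group entered the test only if all 3 libraries of the other group held at least 1 FPKM, so such a gene had to differ. The highest group mean opposite a 0 was 6.08 FPKM with H2O2 and 8.56 FPKM with sorbitol. Without these 96 genes the count was 1888.

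Genes of one assembly component did not always move together. Of the 2001 called genes, 789 (39.4%) belonged to components of several genes, against 35.4% of all tested genes. In 65 components 2 or more genes were called: all were higher with sorbitol in 20 components, all were lower in 29, and both directions occurred in 16. Genes of a component share sequence in the assembly, so the estimated abundance of one can depend on that of another. The 2001 calls came from 1930 components, of which 1212 calls came from components with 1 gene.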

How the data were processed

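Total RNA from 12 libraries, 3 per group, was sequenced, and the sample titles gave the groups and replicate numbers. Adapter trimming with cutadapt and abundance estimation with RSEM are named in the submitters' processing notes, with versions and reference not given in the sources used here. No label states the unit of the deposited values, which was inferred as FPKM, since each library's values carry 2 decimals and add up to a total that differs between libraries, from 1065190 to 1133348. They hold no absolute depth.

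From them, log2(FPKM + 1) was fitted in limma 3.58.1 (R 4.3.3) with a mean-variance trend, using only the 6 libraries compared. Every adjusted p comes from this test, except those given for alternative settings. The fold change is on that scale, which understates changes of low genes. The model was also run on simulated data, whose outcome is not given here. Named genes are called genes at or above the median level whose groups do not overlap, ranked by fold change; 2 in each direction are given by ID and the next 8 by rank. Exact permutation tests used scipy 1.17.1, and tables and plots used Python 3.11.15, pandas 2.3.3, numpy 2.4.6 and matplotlib 3.10.9. The comparison, the rule for named genes and the alternatives were chosen with earlier results of these data known. Lists by annotated product could not be run for lack of names. The split of called genes nearer to control with sorbitol, the calls absent from NaCl, the ranking without a limit on level and the component counts were chosen after values were seen.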

Additional observations from a re-analysis of the deposited data

How the results depend on the processing

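Counts of genes called between sorbitol and H2O2, higher, lower and at least 1 log2, and shared with NaCl, are given in that order. They were 2001, 683, 1318, 718 and 1655. With all 12 libraries in the fit they were 3086, 1207, 1879, 806 and 2446. Restricting the fit to the 13937 genes alone in their component gave 1077, 332, 745, 461 and 866, and NaCl calls were 5628. No filter, with 77390 genes, gave 609, 184, 425, 262 and 460. An adjusted p of 0.01 gave 638, 198, 440, 361 and 549 in limma, and 5848 NaCl calls, since fewer genes can pass. With single libraries left out in turn the ranges were 685 to 1714, 212 to 656, 473 to 1058, 403 to 727 and 596 to 1593, and 7486 to 8456 NaCl calls; the cause was not tested beyond the smaller number of libraries. A filter at 5 FPKM, a pseudocount of 0.1, both scalings, no trend and the removal of genes at 0 kept each count within 1.5 times its value. Scaling to equal sums gave 812 higher and 1132 lower, with 41.8% of calls higher, against 34.1% in the main fit. Median-ratio scaling gave 723 higher and 1257 lower (36.5% higher). Summed FPKM was 1068160 ± 3605 with sorbitol and 1100080 ± 11683 with H2O2 (SD, n = 3 each, exact permutation p = 0.10, two-sided, the smallest possible). The 24 genes called in opposite directions by NaCl numbered 63 with all 12 libraries, 15 under median-ratio scaling, 15 for genes alone in their component, 3 with no filter, 1 at an adjusted p of 0.01 in limma and 2 with the replicate block. The 4 named genes stayed past the threshold in all 66 alternative values, with adjusted p from 2e-06 to 0.023 in limma.

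Same-numbered sorbitol and H2O2 libraries did not deviate together (the 3 correlations ran from -0.107 to 0.017). Only 1 of 6 libraries had its highest correlation with the library of its own number. Deviations from a mean of 3 libraries make this a weak check of pairing. The main fit was planned without a replicate block, with the numbers as names. A fit with a replicate block gave 737, 229, 508, 470 and 638. The values hold no absolute depth, so an unknown number of reads limits the low genes.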
